A study of Mus musculus with 6 samples.

Results

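The enzymes of heme synthesis were followed in the RNA of embryonic mouse hearts. They were taken by gene symbol as the rows of the raw count table for *Alas1*, *Alas2*, *Alad*, *Uros*, *Urod*, *Cpox*, *Ppox* and *Fech*, which are 8 of its 54532 rows. All 8 were expressed highly enough for a test and are among the 19372 genes tested. The first step of the pathway has 2 genes among them, and together the 8 genes cover 7 of the 8 steps.

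RNA-seq was measured in 3 *Smyd1-KO* and 3 WT hearts taken at E9.5. *Smyd1-KO* embryos were homozygous for a null allele of *Smyd1*, a histone methyltransferase gene of striated muscle, and came from crosses of *Smyd1+/-* mice. The allele was constitutive, so every cell of the embryo carried it, blood cells included. Each library came from 1 heart, no treatment was given, and no strain, sex or litter is given for the single hearts in the labels.

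Heme is built from glycine and succinyl-CoA in a chain of reactions that starts in the mitochondrion, passes through the cytosol and returns to the mitochondrion, where iron is put into the finished ring. The first reaction sets the pace and has a pair of enzymes. ALAS1 serves all cells and is held down by heme itself, whereas ALAS2 is made in erythroid cells, where the erythroid transcription factor GATA1 activates its gene and iron regulates its translation. At this stage nucleated erythroblasts from the yolk sac circulate through the heart, and cardiomyocytes need heme for their cytochromes.

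Each heart gave between 48627825 and 64217529 counts. The counts of *Smyd1* itself were lower in every *Smyd1-KO* heart, at 101, 222 and 206 CPM (counts per 1000000 counts of the TMM-scaled library), than in every WT heart, at 414, 379 and 270 CPM. Its log2 fold change of -1.01 ± 0.30 (SE) had an adjusted *P* of 0.0973 in edgeR and was not called, and reads of the gene remained in each *Smyd1-KO* heart. The summed CPM of 10 cardiomyocyte markers was 8765 in *Smyd1-KO* heart 1 and 18134 and 18222 in the others, against 11625 to 19369 in WT hearts. In this heart the erythroid markers were lowest as well.

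*Alas2* fell in *Smyd1-KO* hearts, and it was the 1 heme synthesis enzyme of 8 that was called. A call required an adjusted *P* under 0.05 in edgeR's quasi-likelihood test and a log2 fold change of 0.5 or more in size. Of all tested genes, 4.28% were called, 1.42% lower and 2.86% higher. None of the 8 enzymes was called higher, and 7 did not pass. The log2 fold changes ran from -2.19 to 0.07, with 6 below 0 and a median of -0.23, while the median of all tested genes was 0.00. In 5 of the 8 enzymes, which is 62.5%, every *Smyd1-KO* heart lay below every WT heart, as it did in 15.5% of all tested genes. These were *Alas2*, *Alad*, *Uros*, *Urod* and *Fech*. An unadjusted *P* under 0.05 was reached by 4 enzymes, all lower, and 11.9% of all tested genes had such a *P* and were lower. Heart 1 had the lowest value of the *Smyd1-KO* hearts in 6 enzymes and the highest in *Alad* and *Ppox*.

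**Figure D1:**
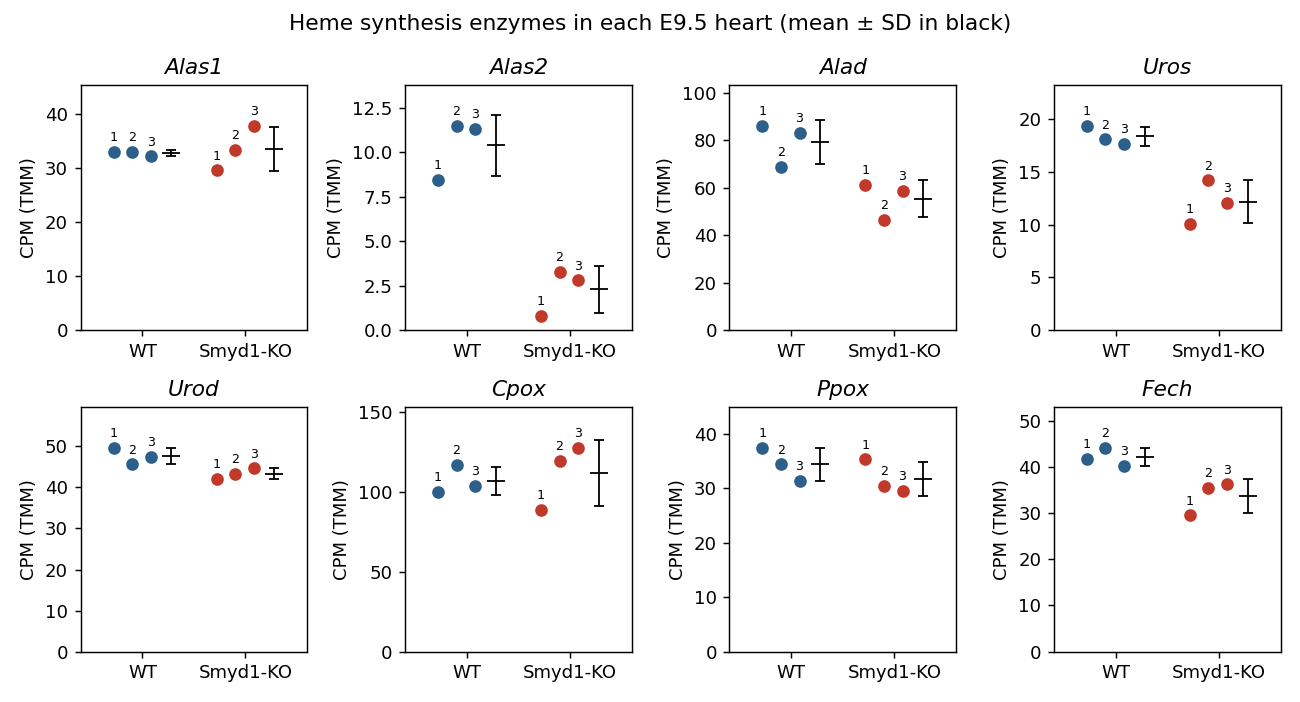
CPM of each heme synthesis enzyme on the y axis of its own panel, by genotype on the x axis, with 1 point per heart and the mean and SD of 3 hearts. The hearts of the genotypes are apart in *Alas2*, *Alad*, *Uros*, *Urod* and *Fech*, where the *Smyd1-KO* hearts are lower, and overlap in *Alas1*, *Cpox* and *Ppox*.

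*Alas2* (ENSMUSG00000025270, chrX:150547375-150570638, plus strand, GRCm38) encodes the erythroid form of the first enzyme. Its level was 0.802, 3.25 and 2.79 CPM in the *Smyd1-KO* hearts and 8.46, 11.5 and 11.3 CPM in the WT hearts. Every *Smyd1-KO* heart was thus below the lowest WT heart, and heart 1 was the lowest of all. The mean was 2.28 ± 1.30 CPM over the *Smyd1-KO* hearts, against 10.4 ± 1.71 CPM over the WT hearts (SD, n = 3 each), a 4.56-fold lower level. The log2 fold change was -2.19 with a standard error of 0.463 and an adjusted *P* of 0.0428 in edgeR. The reads behind these values numbered 39, 192 and 159 in the *Smyd1-KO* hearts and 504, 730 and 755 in the WT hearts. The 95% Poisson interval of heart 1 ran from 0.57 to 1.1 CPM and that of heart 2 from 2.8 to 3.74 CPM, which covers counting error only, so the *Smyd1-KO* hearts differed among themselves by more than counting error. Without heart 1, where 2.23% of all tested genes were called lower, the log2 fold change was -1.79 with an adjusted *P* of 0.00697 in edgeR. Without any one of the other hearts the gene stayed lower but was not called, with an adjusted *P* of 0.0752 without *Smyd1-KO* heart 2, 0.0872 without *Smyd1-KO* heart 3, 0.0804 without WT heart 1, 0.157 without WT heart 2 and 0.136 without WT heart 3. In the same order, these fits called only 51, 70, 139, 8 and 41 genes lower among all tested.

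In RNA of whole hearts, fewer erythroid cells and less *Alas2* RNA per cell cannot be told apart. Of 25 erythroid markers, 24 are in the table and 23 were tested, of which 22 had a negative log2 fold change, 7 were called lower and 0 higher, with a median of -2.49. Their summed level was 136 to 502 CPM in *Smyd1-KO* and 949 to 1232 CPM in WT hearts. *Gata1* fell from 1.98, 3.61 and 3.57 CPM in WT hearts to 0.0411, 0.609 and 0.368 CPM in *Smyd1-KO* hearts (log2 fold change -3.14 ± 0.676 SE, adjusted *P* of 0.0445 in edgeR). Among the others called were the red cell membrane and blood group genes *Ermap*, *Kel* and *Rhd*, the erythroid gene *Trim10* and the transcription factor gene *Nfe2*, with log2 fold changes from -2.90 for *Ermap* to -1.59 for *Rhd*. *Epb42*, which encodes a protein of the red cell skeleton, was at 0 counts in *Smyd1-KO* heart 1. With edgeR 16 markers were called without that heart, 5 without *Smyd1-KO* heart 2, 1 without *Smyd1-KO* heart 3, 3 without WT heart 1, 0 without WT heart 2 and 1 without WT heart 3. Among all tested genes the same fits, in this order, called 447, 51, 70, 139, 8 and 41 lower, against 275 with all hearts. Each of these fits tested between 19826 and 20009 genes. The part of these markers in the *Alas2* result was not tested.

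The RefSeq promoter window of *Alas2* is shown because its product is the called enzyme and because GATA and CACCC motifs are known marks of erythroid promoters. It covers 250 bases before the start of transcription, chrX:150547167-150547416 on the plus strand of GRCm38.p6, 5′ to 3′, with GATA motifs (GATA after A or T and before A or G, on either strand) and CACCC motifs (CCNCNCCC on either strand) in capitals.
*Alas2*: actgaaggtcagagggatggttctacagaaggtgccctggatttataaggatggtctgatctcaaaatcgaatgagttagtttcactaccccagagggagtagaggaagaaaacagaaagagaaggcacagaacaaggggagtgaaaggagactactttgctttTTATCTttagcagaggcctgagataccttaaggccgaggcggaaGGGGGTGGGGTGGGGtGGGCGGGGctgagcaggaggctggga
The single GATA match starts at position -86 from the start of transcription, on the minus strand. The 4 CACCC matches start at -42, -40, -35 and -26, also on the minus strand, and the first 3 overlap each other, so the capitals run together there. The match at -26, GGGCGGGG, fits CCNCNCCC without holding the letters CACCC. Windows of 300 bases, from 250 before to 50 after the start, were searched in 32851 promoters. A GATA match was present in 29.8% of them and a CACCC match in 49.5%.

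*Alas1* (ENSMUSG00000032786, chr9:106233455-106248654, minus strand) encodes the form of the first enzyme found in all cells. It stood at 29.6, 33.4 and 37.9 CPM in *Smyd1-KO* hearts, against 33.0, 33.1 and 32.2 CPM in WT hearts. The *Smyd1-KO* hearts lay on both sides of the WT hearts and were spread more widely, with a coefficient of variation of 12.3% against 1.57%. The means were 33.6 ± 4.14 and 32.8 ± 0.516 CPM (SD, n = 3 each). The log2 fold change of 0.04 ± 0.107 (SE) was not called (adjusted *P* of 0.858, edgeR). It was -0.06 without *Smyd1-KO* heart 3, so no direction can be given.

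The *Alas1* promoter is shown beside that of *Alas2* because the enzymes catalyse the same reaction and of the 4 motifs searched their promoters share only CACCC. The bases are chr9:106247731-106247980 on the minus strand of GRCm38.p6, with matches to the motif of the nuclear respiratory factor NRF1 in capitals.
*Alas1*: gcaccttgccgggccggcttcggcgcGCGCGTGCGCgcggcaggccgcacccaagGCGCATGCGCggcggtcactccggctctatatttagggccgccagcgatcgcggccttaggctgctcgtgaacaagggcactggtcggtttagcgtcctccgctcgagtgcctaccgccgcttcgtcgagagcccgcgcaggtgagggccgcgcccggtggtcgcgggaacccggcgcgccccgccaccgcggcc
The matches start at -224, on the strand opposite to the bases shown, and at -195, and CACCC matches are not marked here. RefSeq gives *Alas1* a second window, which overlaps this one and holds the same pair. NRF1 matches were found in 4.6% of all windows, and among the 7 enzymes with a window in *Alas1* and *Uros*. An enzyme was counted for a motif if any of its windows held it, and *Alas1*, *Alad* and *Uros* have 2 windows each. The shares of all windows are of single windows, so they are not the same unit. Neither *Alas1* window held a GATA match, and the *Alas2* window held no NRF1 match.

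Set against *Alas1* in the same heart, *Alas2* was lower in every *Smyd1-KO* heart than in any WT heart. The CPM of *Alas2* was 2.71, 9.74 and 7.35% of that of *Alas1* in *Smyd1-KO* hearts and 25.6, 34.8 and 35.2% in WT hearts. The hearts did not overlap, and the log2 ratio differed by -2.45 between mean values of -4.11 (SD 0.970) and -1.66 (SD 0.260), with n = 3 each. The two-sided exact permutation test gave *P* = 0.1, the smallest that 3 hearts against 3 allow. Without *Smyd1-KO* heart 1 the difference was -1.90. Per kilobase of exon, *Alas1* exceeded *Alas2* by 1.52, 1.12 and 1.1 times in the WT hearts. In the *Smyd1-KO* hearts it did so by 14.4, 4.0 and 5.29 times. With the longest transcript as length, these values were 2.34, 1.72 and 1.7 in WT hearts and 22.1, 6.16 and 8.15 in *Smyd1-KO* hearts.

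Among the 8 genes, the 3 for enzymes of the cytosol were lower in every *Smyd1-KO* heart than in any WT heart, but none was called. Such an order was found in 15.5% of all tested genes. *Alad* (ENSMUSG00000028393, chr4:62509169-62519918, minus strand), whose product joins aminolevulinate molecules into porphobilinogen, had 61.1, 46.4 and 58.7 CPM in *Smyd1-KO* hearts, against 86.2, 68.7 and 83.1 CPM in WT hearts. The second heart was the lowest in each genotype, though whether the numbers pair the hearts is not given. The means of 55.4 ± 7.89 and 79.3 ± 9.38 CPM (SD, n = 3 each) gave a log2 fold change of -0.52 ± 0.133 (SE, adjusted *P* of 0.0688 in edgeR). With DESeq2, which called 3.27% of all genes lower, its adjusted *P* was 0.0174, and *Alad* was called. With no filter on low counts in edgeR, where 1.01% of all genes were called lower, it was 0.0448 and *Alad* was called too.

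*Uros* (ENSMUSG00000030979, chr7:133686243-133710072, minus strand) encodes the enzyme that closes the linear tetrapyrrole into uroporphyrinogen III. Its levels were 10.1, 14.2 and 12.1 CPM in *Smyd1-KO* hearts, against 19.4, 18.1 and 17.7 CPM in WT hearts. Heart 1 was again the lowest, and the gap between the genotypes lay between 14.2 and 17.7 CPM. The means were 12.2 ± 2.05 and 18.4 ± 0.905 CPM (SD, n = 3 each), with a log2 fold change of -0.60 ± 0.146 (SE, adjusted *P* of 0.0617 in edgeR). DESeq2 called this gene too, with an adjusted *P* of 0.00552. Without *Smyd1-KO* heart 1 the log2 fold change was -0.48.

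*Urod* (ENSMUSG00000028684, chr4:116989965-116994413, minus strand), whose product trims the side chains of uroporphyrinogen, differed least of the 3. It had 42.0, 43.2 and 44.6 CPM in *Smyd1-KO* hearts, against 49.7, 45.6 and 47.4 CPM in WT hearts. These values did not overlap, but the nearest hearts were 44.6 and 45.6 CPM. The means were 43.3 ± 1.30 and 47.6 ± 2.01 CPM (SD, n = 3 each), with a log2 fold change of -0.14 ± 0.0746 (SE, adjusted *P* of 0.302 in edgeR).

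Of the 3 mitochondrial enzymes that finish the ring, *Fech* was separated between the genotypes and *Cpox* and *Ppox* were not. *Cpox* (ENSMUSG00000022742, chr16:58670292-58717636, plus strand) encodes coproporphyrinogen oxidase. It had 89.0, 119.8 and 128 CPM in *Smyd1-KO* hearts, against 100.2, 117 and 104 CPM in WT hearts. The *Smyd1-KO* hearts held both the lowest and the highest value of all. Its log2 fold change of 0.07 ± 0.142 (SE, adjusted *P* of 0.811 in edgeR) was -0.04 without *Smyd1-KO* heart 3 and 0.21 without *Smyd1-KO* heart 1.

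The *Cpox* promoter is shown because it held the most GATA matches of the 7 enzymes with a window, while the level of *Cpox* was not called different. The bases are chr16:58669958-58670207 on the plus strand of GRCm38.p6, with GATA and CACCC motifs in capitals as for *Alas2*.
*Cpox*: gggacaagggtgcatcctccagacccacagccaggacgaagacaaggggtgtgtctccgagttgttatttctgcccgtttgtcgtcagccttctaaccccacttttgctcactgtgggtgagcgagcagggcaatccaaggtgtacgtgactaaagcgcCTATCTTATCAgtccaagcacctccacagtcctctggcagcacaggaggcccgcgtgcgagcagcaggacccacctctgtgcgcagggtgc
The matches start at -91 and -86 and overlap by 1 base, and a further match starts at position 5, after the bases shown. *Uros*, the other enzyme with GATA matches, had 2, at -205 and -68. *Uros* has 2 windows, and both GATA matches lay in chr7:133702451-133702750. Its matches to the other motifs all lay in the separate window chr7:133709246-133709545. A match to the pattern CCNCNCCC was found in all 7 enzymes. This pattern also fits stretches without the letters CACCC on either strand, such as GGGCGGGG in *Urod* and *Ppox* and GGGAGCGG in *Cpox*. The shorter CCACCC, searched after the data were seen, was found in *Alas1*, *Alas2* and 31.5% of all windows. The hypoxia response core (ACGTG or GCGTG on either strand) was found in 6 of the 7, the exception being *Alas2*, and in 43.8% of all windows.

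*Ppox* (ENSMUSG00000062729, chr1:171275990-171281186, minus strand), which encodes protoporphyrinogen oxidase, had 35.3, 30.4 and 29.5 CPM in *Smyd1-KO* hearts. The WT hearts had 37.5, 34.4 and 31.4 CPM. The genotypes overlapped, since *Smyd1-KO* heart 1 was above 2 of the WT hearts. The log2 fold change was -0.12 ± 0.110 (SE, adjusted *P* of 0.550 in edgeR).

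*Fech* (ENSMUSG00000024588, chromosome 18) encodes ferrochelatase, the enzyme that puts iron into protoporphyrin. Its levels were 29.5, 35.4 and 36.2 CPM in *Smyd1-KO* hearts, against 41.7, 44.2 and 40.3 CPM in WT hearts, without overlap. The means were 33.7 ± 3.68 and 42.1 ± 1.96 CPM (SD, n = 3 each), and the log2 fold change of -0.32 ± 0.103 (SE) had an adjusted *P* of 0.114 in edgeR. It was -0.23 without *Smyd1-KO* heart 1.

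**Figure D2:**
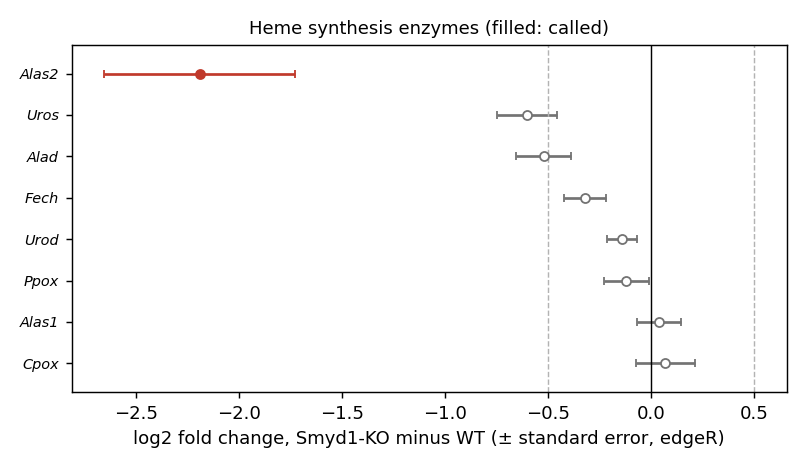
Log2 fold change of *Smyd1-KO* over WT hearts on the x axis for each enzyme on the y axis, with bars of 1 standard error from edgeR. *Alas2* at -2.19 is the 1 called enzyme, and the others lie between -0.60 for *Uros* and 0.07 for *Cpox*.

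Levels were compared between enzymes per length, as CPM per kilobase of exon. In WT hearts *Alad* was the highest at 42.4 ± 5.01, followed by *Urod* at 18.4 ± 0.777, *Cpox* at 16.1 ± 1.32 and *Ppox* at 7.62 ± 0.683 CPM per kilobase (SD, n = 3 each). *Alas1* at 5.31 ± 0.0835, *Uros* at 5.14 ± 0.253, *Alas2* at 4.34 ± 0.711 and *Fech* at 3.04 ± 0.141 CPM per kilobase followed. Neighbours in this order were apart in their ranges except for *Urod* with *Cpox* and *Alas1* with *Uros*. In *Smyd1-KO* hearts *Alas2* was the lowest of the 8 at 0.948 ± 0.541 CPM per kilobase, below *Fech* at 2.44 ± 0.266. *Alad* remained the highest at 29.6 ± 4.22 CPM per kilobase. The difference between WT and *Smyd1-KO* hearts was 12.8 ± 3.78 CPM per kilobase for *Alad* and 3.39 ± 0.516 for *Alas2* (standard error). The order depends on the length used. With the longest transcript in place of all exons, *Alad* was still the highest in WT hearts, at 44.8 CPM per kilobase, and *Alas2* was the lowest, at 5.12 against 6.40 for *Fech*. *Cpox*, at 34.6, then stood above *Urod*, at 31.9, and *Ppox*, at 7.80, stood below *Alas1*, at 9.64, and *Uros*, at 8.40 CPM per kilobase. By this length the WT ranges of *Cpox* and *Urod* overlapped, as did those of *Ppox* and *Uros*.

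The enzymes took different paths in the 3 *Smyd1-KO* hearts. Relative to the WT mean, the log2 level of *Alas2* was -3.70, -1.68 and -1.91 in hearts 1, 2 and 3. The summed globins had -5.22, -1.65 and -2.45. *Uros*, at -0.86, -0.37 and -0.60, and *Fech*, at -0.51, -0.25 and -0.21, were also lowest in heart 1, where *Alad* was closest to the WT mean, at -0.38 against -0.77 and -0.43. The cardiomyocyte markers stood at -0.90, 0.15 and 0.15 in the same hearts. The part of either marker group in the values of the enzymes was not tested.

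**Figure D3:**
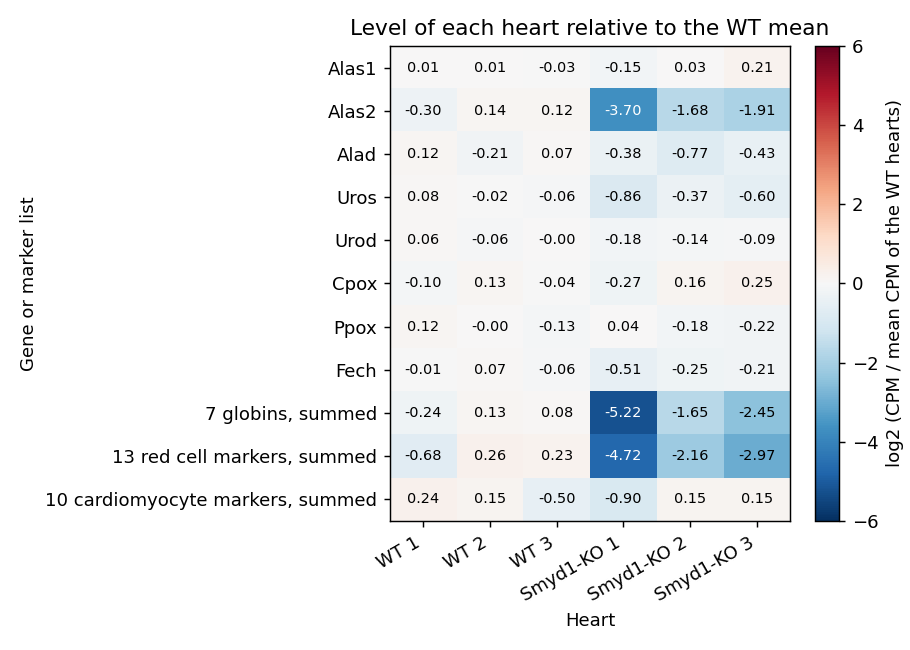
Grid of log2 levels relative to the WT mean, with 1 column per heart on the x axis and 1 row per enzyme or marker sum on the y axis, where colour and printed number give the value. *Alas2* and the summed globins are lowest in *Smyd1-KO* heart 1, at -3.70 and -5.22, while *Alas1* stays between -0.15 and 0.21 in these hearts.

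Set against the summed globins of the same heart, *Alas2* lay below the WT range in no *Smyd1-KO* heart. Its CPM was 3.56, 1.21 and 1.81% of the globin sum in *Smyd1-KO* hearts and 1.19, 1.25 and 1.28% in WT hearts. *Smyd1-KO* heart 2 lay within the WT range and the other *Smyd1-KO* hearts above it. The log2 ratio was higher by 0.68 in *Smyd1-KO* hearts, with a two-sided exact permutation *P* of 0.3, also 0.3 after adjustment over the 8 enzymes. It was 0.26 without *Smyd1-KO* heart 1 and 1.03 without *Smyd1-KO* heart 2. The other 7 enzymes were all higher per globin in every *Smyd1-KO* heart, by 2.48 for *Uros* to 3.15 for *Cpox* on the log2 scale. For each of these the exact permutation *P* was 0.1, or 0.114 adjusted over the 8 enzymes. These 7 ratios share the globin sum as denominator, which did not overlap between the genotypes. The log2 fold changes of the 7 enzymes themselves ran only from -0.60 to 0.07. The *P* values are therefore not 7 separate results about the enzymes. Without *Smyd1-KO* heart 1, where the globins were lowest, these differences were smaller, from 1.44 for *Alad* to 2.25 for *Cpox*. The globin sums themselves were 22.5, 268 and 153 CPM in *Smyd1-KO* hearts, against 709, 919 and 883 CPM in WT hearts.

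The choice of erythroid markers decides the direction of this ratio. Against the 17 erythroid markers other than globins, *Alas2* was lower by a log2 difference of -1.75 (exact permutation *P* of 0.1, 0.267 adjusted over the 8 enzymes). In that sum, however, *Sptb*, a spectrin gene, made up 78.1, 78.8 and 82.4% in *Smyd1-KO* hearts and 62.7, 49.8 and 49.9% in WT hearts, and its own log2 fold change was -0.02. Without *Sptb*, *Tal1*, *Epor* and *Tspan33*, which were removed after their values were seen, the *Alas2* ratio was 23.5, 16.2 and 24.2% in *Smyd1-KO* hearts and 15.1, 10.7 and 10.7% in WT hearts, a log2 difference of 0.81 that was given no test.

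**Figure D4:**
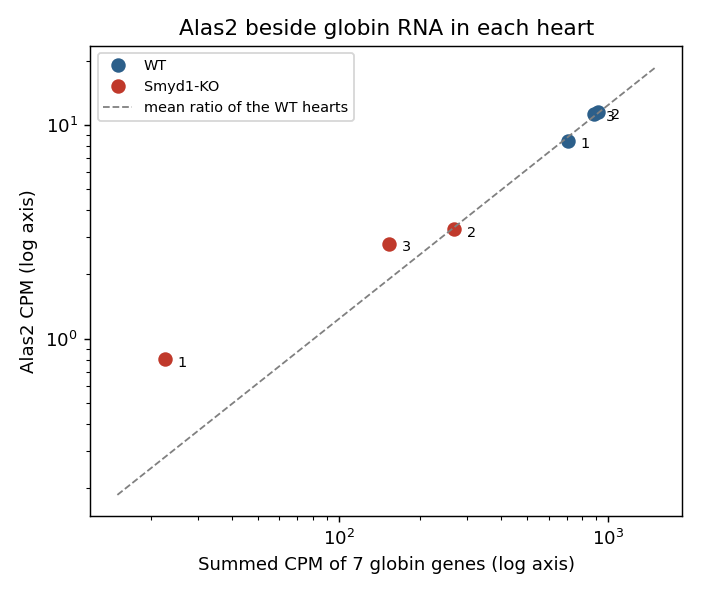
CPM of *Alas2* on the y axis against the summed CPM of the globin genes on the x axis, both on log scales, with 1 point per heart and a dashed line at the mean ratio of the WT hearts. The *Smyd1-KO* hearts lie below the WT hearts on both axes, with heart 1 at 0.802 CPM of *Alas2* and 22.5 CPM of globins.

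The *Alas2* gene lies within the span of *Apex2*, a DNA repair gene on the opposite strand, and 311 bases of their exons are shared, or 12.9% of the exonic length of *Alas2*. *Apex2* fell as well, from 24.2, 23.7 and 27.4 CPM in WT hearts to 17.8, 16.6 and 17.4 CPM in *Smyd1-KO* hearts (log2 fold change -0.54 ± 0.102 SE, adjusted *P* of 0.0321 in edgeR). The strand setting of the counting is not given in the sources used here, so reads on the shared bases may have been split between the genes. *Ppox* shares 791 exonic bases, or 17.5% of its exonic length, with *B4galt3* (log2 fold change -0.23, adjusted *P* of 0.158 in edgeR). The genes that share exonic bases with *Alas1* and *Cpox* had at most 15 counts in any heart.

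Of 40 other genes of heme supply, transport, breakdown and sensing, all tested, 2 were called lower, 1 was called higher and 37 were not called. The median log2 fold change was -0.07. Every *Smyd1-KO* heart lay below every WT heart in 10 of them, or 25.0%, against 15.5% of all tested genes. The opposite order was found in 6, against 15.9% of all tested genes. *Hmox1* encodes heme oxygenase, which breaks heme down, and rose from 19.4, 17.1 and 15.6 CPM in WT hearts to 35.7, 40.8 and 48.8 CPM in *Smyd1-KO* hearts. Its log2 fold change of 1.27 ± 0.144 (SE, adjusted *P* of 0.00668 in edgeR) was the largest of the list, and of the 6 fits with 1 heart left out it missed the call only without WT heart 2 (adjusted *P* of 0.0544).

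*Flvcr1*, which encodes a heme exporter, fell from 13.4, 14.5 and 17.0 CPM in WT hearts to 9.5, 6.73 and 6.57 CPM in *Smyd1-KO* hearts. The log2 fold change was -0.98 ± 0.187 (SE, adjusted *P* of 0.0326 in edgeR). Of the 6 fits with 1 heart left out it was called in the one without *Smyd1-KO* heart 1, and in the others its adjusted *P* ran from 0.0625 to 0.134. *Tmem14c*, needed to carry protoporphyrinogen into the mitochondrial matrix, fell from 83.6, 75.7 and 63.8 CPM in WT hearts to 44.8, 52.0 and 54.4 CPM in *Smyd1-KO* hearts (log2 fold change -0.56 ± 0.122 SE, adjusted *P* of 0.0457 in edgeR), and was called in none of these 6 fits (adjusted *P* from 0.0588 to 0.170). No heart of one genotype reached the range of the other in these 3 genes.

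*Slc25a37* and *Abcb10* were lower in every *Smyd1-KO* heart than in any WT heart without being called. The mitochondrial iron importer *Slc25a37* had 46.7, 53.8 and 42.9 CPM against 58.8, 94.1 and 93.2 CPM in WT hearts (log2 fold change -0.78 ± 0.188 SE, adjusted *P* of 0.059 in edgeR). *Abcb10*, a mitochondrial transporter of erythroid cells, had 29.5, 38.1 and 47.4 CPM against 55.4, 59.9 and 51.5 CPM (log2 fold change -0.54 ± 0.167 SE, adjusted *P* of 0.107 in edgeR). *Flvcr2*, a gene related to *Flvcr1*, was higher in every *Smyd1-KO* heart, at 8.82, 15.3 and 15.3 CPM against 7.67, 6.54 and 4.10 CPM in WT hearts (log2 fold change 1.11 ± 0.299 SE, adjusted *P* of 0.0761 in edgeR). It was not called in edgeR, but DESeq2 called it, as it did *Slc25a37* and *Abcb10*. In *Slc25a38*, the glycine carrier that feeds the first step, the genotypes met, and the log2 fold change was -0.12 ± 0.0880 (SE, adjusted *P* of 0.445 in edgeR). *Eif2ak1*, the heme-regulated kinase of translation, passed the test at 43.6 ± 1.5 against 58.0 ± 2.28 CPM (SD, n = 3 each; adjusted *P* of 0.0264 in edgeR), but its log2 fold change of -0.41 was under the limit for a call.

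**Figure D5:**
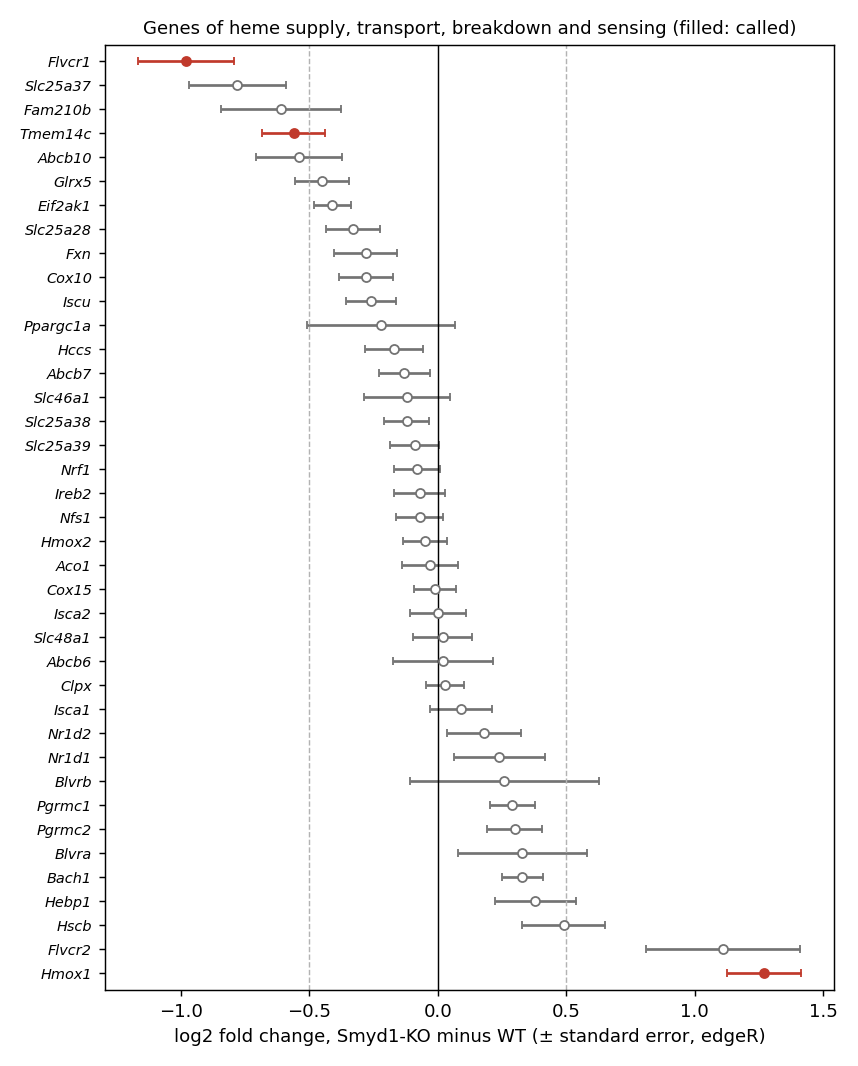
Log2 fold change of *Smyd1-KO* over WT hearts on the x axis for 39 of the other heme genes on the y axis, with bars of 1 standard error from edgeR. *Flvcr1* at -0.98 and *Hmox1* at 1.27 lie at the ends, and *Tmem14c* at -0.56 is the third called gene.

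Across the 6 hearts, the genes whose log2 CPM was most like that of *Alas2* by Pearson's *r* were the red cell skeleton gene *Ank1* (0.9966), the red cell anion exchanger *Slc4a1* (0.9961), the embryonic globins *Hba-x* (0.9946) and *Hbb-bh1* (0.9935), and *Gm28438* (0.9929). *Ank1* was called lower, with a log2 fold change of -1.40 and an adjusted *P* of 0.0445 in edgeR. Of the other enzymes, *Fech* (0.973) and *Uros* (0.959) were closest to *Alas2* and *Ppox* (0.0766) was farthest. The genes most like *Alas1* were *Copg1* (0.9889), *Plagl1* (0.9879), *Gm3365* (0.986), *2310030G06Rik* (0.9858) and *Csf1* (0.9857). Of the enzymes, *Cpox* (0.868) was closest to *Alas1* and *Ppox* (-0.591) was opposite. These correlations are a description over 6 hearts. For *Alas2* the hearts share the difference between the genotypes and the low values of heart 1. *Alas1* and the genes most like it were not called, with log2 fold changes from 0.02 to 0.28. Each of them was lowest in *Smyd1-KO* heart 1 and highest in *Smyd1-KO* heart 3. By Spearman's rank correlation, the genes most like *Alas1* ran from 0.714 for *Csf1* to 1.0 for *2310030G06Rik*. Those most like *Alas2* ran from 0.943 for *Ank1* to 1.0.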

How the data were processed

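RNA-seq of 3 *Smyd1-KO* and 3 WT E9.5 hearts was analysed, grouped by the sample labels. The authors selected poly A RNA, sequenced paired-end reads and aligned them to mm10 with STAR in bcbio-nextgen. They deposited raw counts per gene as whole numbers. They also deposited a normalized signal per gene, raw counts divided by 1 DESeq2 size factor per heart, which was checked against the counts and not used further. The counting tool, annotation release and strand setting are not given in the sources used here. Whether the hearts of a genotype came from separate litters is not given either, so *P* values measure the spread between these embryos.

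Counts were filtered with filterByExpr, scaled by TMM and tested with edgeR 4.0.16 (quasi-likelihood, Benjamini-Hochberg over 19372 genes) in R 4.3.3. Total counts per heart, 48627825 to 64217529, limit the precision of low levels. CPM were scaled by TMM. Correlations used log2 CPM with a prior count of 2. CPM per kilobase used exon unions of GENCODE for GRCm38. Ratios were tested by two-sided exact permutation with scipy 1.17.1, and the tests were tried on simulated data. Promoters came from RefSeq (GRCm38.p6), where 7 of the 8 enzymes had a window. *Fech* had none. Motif searches left out 1 chromosome.

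The enzymes, gene lists and tests were chosen with earlier results of these data known. The genes named were the enzymes, the called genes of the heme and erythroid lists, the 5 genes most correlated (mean log2 CPM at or above 1) with *Alas2* and with *Alas1*, *Slc25a37*, *Slc25a38*, *Abcb10*, *Gata1*, *Hmox1*, *Tmem14c* and *Smyd1*. *Apex2* and *B4galt3* were named for their overlap with enzymes, and *Eif2ak1*, *Flvcr2*, *Epb42*, *Sptb*, *Tal1*, *Epor* and *Tspan33* were named after their values were seen. *Ahsp* was not analysed here, and a few genes of the lists are counted but not reported here. The summed CPM of 10 macrophage markers was 6.56 to 8.92 in *Smyd1-KO* and 6.75 to 6.90 in WT hearts. That of 8 liver and endoderm markers was 4.50 to 75.5 and 2.79 to 40.8, and that of 8 endothelial markers 609 to 929.5 and 603 to 731. Only 3, 6 and 8 markers of these lists were tested, and 0 were called in edgeR. Of the macrophage markers, 7 were under 1 CPM in every heart. Alternatives were DESeq2 1.42.0, RLE and upper-quartile scaling, no filter, at least 10 counts in every heart, no limit on the fold change, glmTreat, a replicate block, each heart left out, and the removal of mitochondrial and globin genes. An erythroid sum without 4 genes, ratios to globins with each heart left out and the motif CCACCC were added after the data were seen.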

Additional observations from a re-analysis of the deposited data

How the results depend on the processing

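*Alas2* was lower under every alternative run but was called in only some of them. Its log2 fold change was -2.19 with glmTreat against a log2 fold change of 0.5 (adjusted *P* of 0.149, edgeR), and ran from -2.53 to -1.79 when 1 heart was left out. Over all its alternatives the adjusted *P* ran from 1.56e-06 with DESeq2 to 0.157 without WT heart 2 in edgeR. DESeq2 called 3 enzymes (*Alas2*, *Alad* with a log2 fold change of -0.51, *Uros* with -0.59), 6 other heme genes and 16 erythroid markers, against 1, 3 and 7 with edgeR. No filter on low counts gave 2 enzymes (*Alas2*, and *Alad* with -0.51), 5 other heme genes and 15 markers, and glmTreat gave 0 enzymes, 1 other heme gene and 1 marker. Leaving out 1 heart gave 0 to 1 enzymes, 0 to 4 other heme genes and 0 to 16 markers. Among all genes edgeR called 830, DESeq2 1747, glmTreat 154, and the fits without 1 heart 97 (without WT heart 2) to 1256 (without *Smyd1-KO* heart 1). Left-out hearts moved *Alas1* from -0.06 to 0.12, *Cpox* from -0.04 to 0.21, the *Alad* ratio to the erythroid markers other than globins from -0.25 to 0.47 and the *Uros* ratio from -0.14 to 0.20, so that none of these has a stable direction. The *Alas2* ratio to these markers, -1.75, was 0.68 with globins and 0.81 without *Sptb*, *Tal1*, *Epor* and *Tspan33*. The cause of these changes was not tested.

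With the replicate block 59 genes were called in all, 0 of them enzymes, 0 other heme genes and 1 an erythroid marker, and *Alas2* stood at -2.38 (adjusted *P* of 0.0969, edgeR). Whether the numbers pair the hearts is not given. Deviations of same-numbered hearts from their genotype means correlated at -0.216, -0.054 and -0.182, and those of the other pairs at -0.156 to 0.286. These values cannot decide it, because the deviations within a genotype sum to 0.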
